A study of Rattus norvegicus with 5 samples.

Results

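Transcripts of 10 genes of glucose uptake and glycolysis were compared between leukocytes from the blood vessels of rat kidney allografts and isografts, in a study of self-limiting acute rejection. The genes were the hexose transporters Slc2a1, Slc2a3 and Slc2a6, the hexokinases Hk1, Hk2 and Hk3, the phosphofructokinase Pfkp, the aldolase Aldoa, the triose phosphate isomerase Tpi1 and the lactate dehydrogenase Ldha. They were taken by symbol from the annotation of the array's probes, and all 10 were measured, among 14329 named genes and 33646 rows tested. In the allograft group, kidneys of F344 rats were placed in LEW recipients, a pairing with a minor difference in MHC class I. In the isograft group, donor and recipient were both LEW. All animals were male, no recipient kept a kidney of its own, donors received heparin and recipients ampicillin, and neither group received immunosuppression. The sources used here state neither the animals' age nor the day of harvest. Cells were flushed out of the renal vessels of the graft, and a Percoll gradient was used to deplete granulocytes and red cells, leaving mononuclear leukocytes. Each of 5 arrays set the cDNA of an allograft sample against that of an isograft sample, with the allograft in Cy5 on replicates 1, 3 and 5 and in Cy3 on replicates 2 and 4. The labels describe biological replicates without saying which animals, single or pooled, each one came from, so the p-values below measure the spread between these arrays.

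Glycolysis splits glucose into pyruvate. Glucose enters through transporters of the Slc2a family, hexokinases trap it as glucose 6-phosphate, phosphofructokinase makes the committed step, aldolase and triose phosphate isomerase produce the trioses, and lactate dehydrogenase turns pyruvate into lactate. Activated T cells and macrophages stimulated with microbial products or interferon-gamma are known for raising glucose uptake and lactate output. The hypoxia-inducible factors, which bind the core letters ACGTG or GCGTG, are known regulators of many of these genes.

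The values were log ratios, read here as base 2, with allograft over isograft as the likely direction on all 5 arrays. A natural log cannot be told apart from the values and would make the folds larger, 25.7 in place of 9.50 for Hk3. Ratios carry no levels, so the labelled cell type could not be checked against the levels of its markers. The row order had to be recovered from the array layout. In the order used, probes of the same accession correlated at 0.449 over 4514 pairs, against 0.0236 in the next best of the orders tried. Each array had values on 41033 to 43286 spots and a median ratio between -0.012 and 0.028. The arrays did not correlate evenly: across the named genes the correlation ran from -0.0147 between replicates 1 and 4 to 0.645 between replicates 1 and 5. Among replicates 1, 3 and 5, with the allograft in Cy5, it was 0.473 to 0.645, and between replicates 2 and 4 it was 0.272. Between arrays of opposite dye orientation it ran from -0.0147 to 0.477, the highest being replicates 2 and 3. The part of the dye in this was not tested. In a mixed cell sample, more cells of a type and more RNA per cell cannot be told apart.

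Of the 10 genes, 5 were higher in allograft leukocytes at an adjusted p under 0.05 in limma's moderated test with a dye term, namely Hk3, Slc2a6, Pfkp, Slc2a1 and Tpi1, and none was lower. Over all rows tested, 0.761% were called higher, 0.591% lower and 1.35% in either direction, and over the named genes 1.07% were called higher and 0.712% lower. The 10 genes were chosen with earlier results of these data known, so the values of all rows and genes are given as context and do not test the 10 as a set. The median fitted ratio of the 10 genes was 0.92 on the log2 scale, against -0.0058 for all named genes and -0.044 for the 21 other glycolysis genes tested. Of the 10, 8 were above 0 on 5 of 5 arrays, where 10.2% of named genes were. The same count, 8 of 10, had an unadjusted p under 0.05, as did 4486 of the 33646 rows. When the arrays were scaled to a common spread the call held for Hk3 and Slc2a6 alone, and the calls over all rows went from 256 higher and 199 lower to 98 higher and 215 lower.

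**Figure D1:**
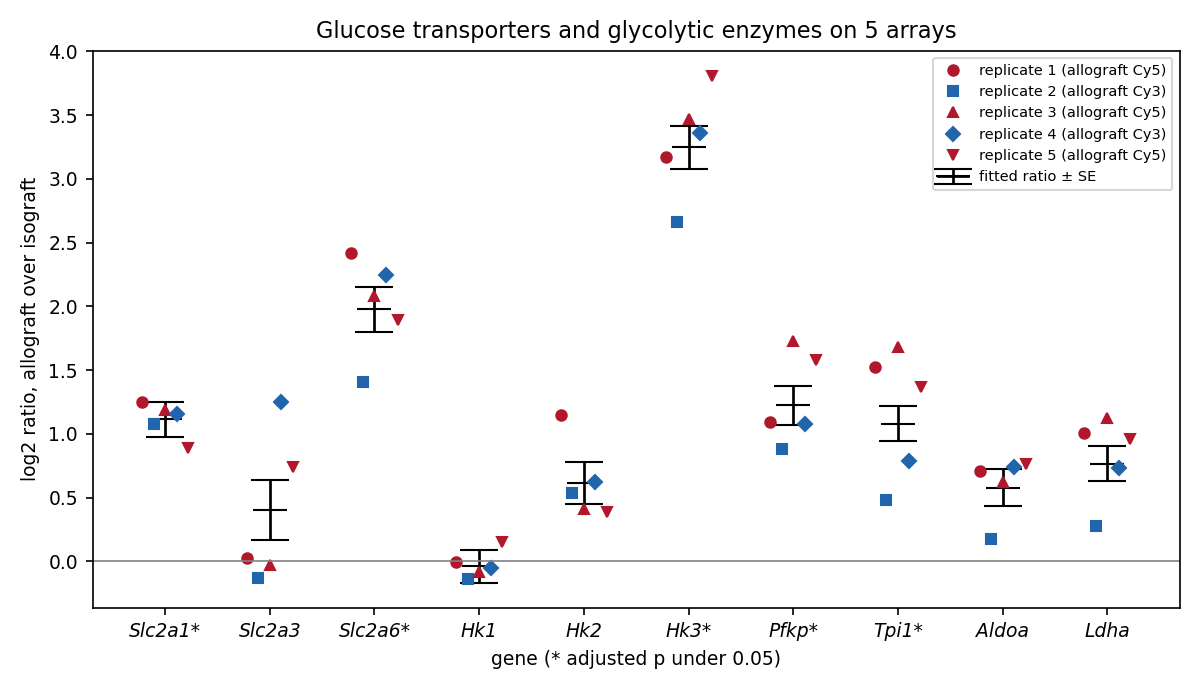
Log2 ratio of allograft over isograft for each of the 10 genes on each of the 5 arrays (points, coloured by the dye of the allograft sample), with the fitted ratio ± SE. Hk3 lies between 2.67 and 3.81 and Slc2a6 between 1.40 and 2.42, above the other 8 genes on every array, while Hk1 stays between -0.14 and 0.15.

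Of the hexokinases, which phosphorylate glucose on entry, Hk3 was called higher and Hk1 and Hk2 were not. Hk3, an isoform found mainly in myeloid cells, had log2 ratios of 3.17, 2.67, 3.47, 3.36 and 3.81 on replicates 1 to 5. It was the highest of the 10 genes on 5 of 5 arrays, with 6, 3, 3, 2 and 1 named genes above it on replicates 1 to 5. Its fitted ratio was 3.25 ± 0.17 (SE, n = 5 arrays), or 9.50-fold, with a limma adjusted p of 0.00241, and it ranked 2 of the 33646 rows by ratio. Hk2, the isoform induced by insulin and by hypoxia, had ratios of 1.15, 0.53, 0.41, 0.62 and 0.39. All 5 were above 0, with replicate 1 apart from the rest, and the fitted 0.61 ± 0.17 did not pass (adjusted p = 0.152 in limma). Hk1, the isoform of most tissues, had ratios of -0.0048, -0.14, -0.079, -0.050 and 0.15 and a fitted ratio of -0.036 ± 0.13 (adjusted p = 0.926 in limma). The 95% interval of the Hk1 ratio, not adjusted for the number of genes, was -0.34 to 0.27. Its 3 probes fitted singly gave 0.027, -0.29 and 0.16, the lowest being a probe designed on an expressed sequence tag. On each array Hk3 exceeded Hk1, by 2.80 to 3.66 with a mean of 3.32 (SD 0.34, n = 5), and Hk3 exceeded Hk2 by a mean of 2.67 (SD 0.60, n = 5). Hk2 exceeded Hk1 on 5 of 5 arrays by a mean of 0.65 (SD 0.34). For each of these 3 pairs the exact two-sided sign-flip test gave p = 0.0625, the smallest that 5 arrays allow, and 0.0781 adjusted over the 10 pairs of related genes compared, so none could pass 0.05.

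Of the transporters, Slc2a6 and Slc2a1 were called higher and Slc2a3 was not. Slc2a6, which encodes GLUT6, a transporter of intracellular membranes found in leukocytes, spleen and brain, had ratios of 2.42, 1.40, 2.08, 2.25 and 1.89. It was second of the 10 genes on 5 of 5 arrays and lowest on replicate 2, with a fitted ratio of 1.98 ± 0.18, or 3.94-fold (limma adjusted p = 0.00689). Slc2a1, which encodes GLUT1, the basal glucose transporter of many cells, had ratios of 1.25, 1.08, 1.19, 1.16 and 0.89. Its SD over the arrays was 0.139, the smallest of the 5 genes called, and its dye term was -0.0019, so the arrays of both dye orientations gave near-equal means of 1.11 and 1.12. The fitted ratio of Slc2a1 was 1.11 ± 0.13, or 2.16-fold (limma adjusted p = 0.0169). Slc2a3, which encodes GLUT3, a transporter of high affinity in neurons and leukocytes, had ratios of 0.03, -0.13, -0.02, 1.25 and 0.74. Replicates 4 and 5 stood well above 0 and replicates 1 to 3 close to it, and the fitted ratio of Slc2a3 was 0.41 ± 0.24 with an interval of -0.15 to 0.96 (limma adjusted p = 0.533). Slc2a6 exceeded Slc2a1 by a mean of 0.89 (SD 0.33, n = 5) and Slc2a3 by 1.63 (SD 0.60), on 5 of 5 arrays each (exact p = 0.0625 and 0.0781 adjusted over the 10 pairs). Slc2a1 exceeded Slc2a3 on 4 of 5 arrays by a mean of 0.74 (SD 0.66, exact p = 0.125).

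Pfkp, the platelet-type phosphofructokinase, which is also present in leukocytes, had ratios of 1.09, 0.89, 1.73, 1.08 and 1.58 on replicates 1 to 5. Replicates 3 and 5 were the highest, and the fitted ratio was 1.22 ± 0.15, or 2.34-fold (limma adjusted p = 0.0180). The other isoforms of the enzyme were near 0, with fitted ratios of -0.09 for Pfkl and 0.17 for Pfkm, and neither was called. Pfkp exceeded Pfkl by a mean of 1.35 (SD 0.53, n = 5) and Pfkm by 1.12 (SD 0.40), on 5 of 5 arrays each (exact p = 0.0625 and 0.0781 adjusted over the 10 pairs). Markers of platelets, the cells it is named for, were lower in the allograft samples, with 5 of 7 called and a median of -2.23, and their part in the Pfkp ratio was not tested.

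Tpi1, which interconverts the trioses, had ratios of 1.52, 0.49, 1.68, 0.79 and 1.37. The replicates with the allograft in Cy5 averaged 1.52 and those with it in Cy3 averaged 0.637, with no overlap. The fitted ratio, which gives both orientations equal weight, was 1.08 ± 0.14, or 2.12-fold (limma adjusted p = 0.0194), and the dye term of Tpi1 was 0.44 (unadjusted p = 0.0142 and adjusted p = 0.390 in limma). Tpi1 was the only 1 of the 10 genes with an unadjusted p under 0.05 for the dye term, and no row of the table passed after adjustment, although 3823 rows did before it. The 407 spots whose sign followed the dye had been left out before this fit and could not enter these counts. The absence of adjusted dye calls therefore holds only for the rows kept. Aldoa, the aldolase of muscle and of most cells outside the liver, had ratios of 0.71, 0.17, 0.63, 0.74 and 0.76. Replicate 2 stood below the other 4 arrays, and the fitted ratio of Aldoa was 0.58 ± 0.14 (limma adjusted p = 0.127). Aldoa exceeded its paralogue Aldoc on 4 of 5 arrays by a mean of 0.58 (SD 0.49, exact p = 0.125).

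Ldha, which encodes the subunit of lactate dehydrogenase that favours lactate formation, was measured by 10 probes of the same accession. Their mean ratios were 1.01, 0.27, 1.13, 0.73 and 0.96 on replicates 1 to 5. The 10 probes lay close together on each array, with an SD of 0.0566 to 0.0925 between probes against 0.337 between arrays. The low value of replicate 2 was therefore shared by all 10 probes, whose values there ran from 0.19 to 0.35. The mean was 1.03 on the arrays with the allograft in Cy5 and 0.504 on those with it in Cy3, with no overlap. The fitted ratio of Ldha, 0.77 ± 0.14 or 1.70-fold, missed the threshold (limma adjusted p = 0.0559), as did each of its probes fitted singly, at 0.0528 to 0.0721. It passed in limma after quantile normalization between arrays (adjusted p = 0.0476) and after removal of a local trend over the array (0.0490). These settings also called more of all rows, 749 and 574 against 455. Ldha did not pass with the arrays scaled to a common spread (limma adjusted p = 0.112) or with any 1 array left out (0.0968 to 0.304). Ldha exceeded Ldhb, the subunit of heart and other aerobic tissues, by a mean of 1.09 (SD 0.52, n = 5), on 5 of 5 arrays (exact p = 0.0625 and 0.0781 adjusted over the 10 pairs). The rat genome annotation lists 30 pseudogenes named after Ldha, 9 after Aldoa and 3 after Tpi1, and whether the probes of these genes also bind transcripts of such copies was not tested.

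**Figure D2:**
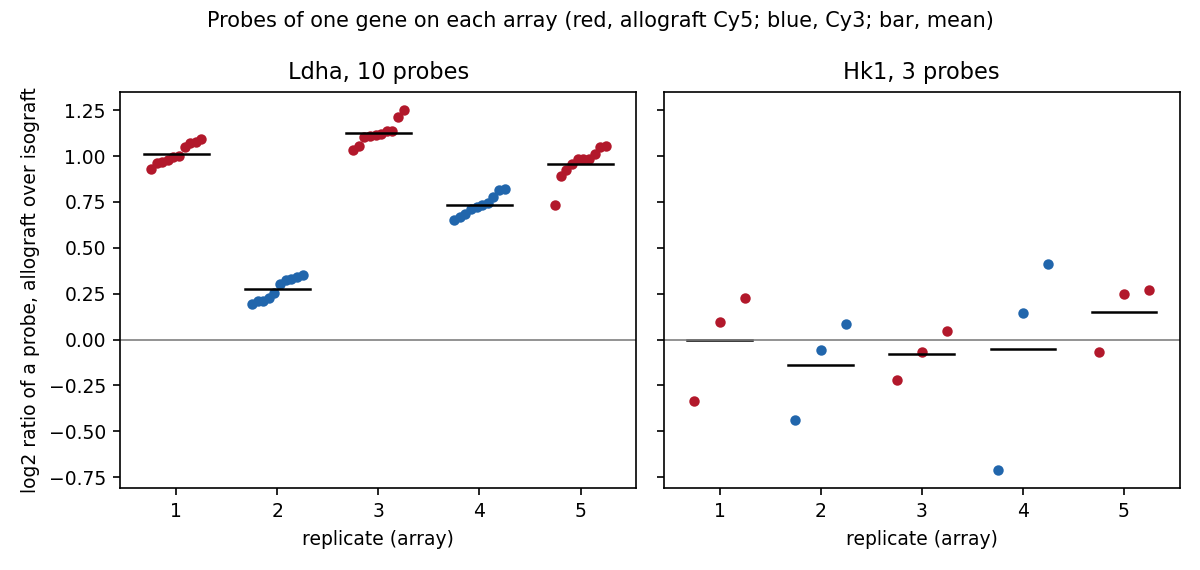
Log2 ratio of allograft over isograft of each probe of Ldha (10 probes) and Hk1 (3 probes) on each array, with the mean as a bar and the dye of the allograft sample as colour. The 10 Ldha probes form a tight group on every array and are lowest on replicate 2, while the 3 Hk1 probes spread around 0.

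The stretch around the start of transcription is shown for the 5 genes called and for Ldha, to set the letters bound by hypoxia-inducible factors beside the ratios. Each sequence is from RefSeq on the GRCr8 assembly, runs 5′ to 3′ on the strand of the gene and spans 250 bases before the start to 50 after it. Capitals mark ACGTG or GCGTG on either strand, so that CACGT and CACGC are the same letters read on the other strand, and a CACGTG holds ACGTG on both strands.
Ldha, chr1:106507842-106508141, plus strand: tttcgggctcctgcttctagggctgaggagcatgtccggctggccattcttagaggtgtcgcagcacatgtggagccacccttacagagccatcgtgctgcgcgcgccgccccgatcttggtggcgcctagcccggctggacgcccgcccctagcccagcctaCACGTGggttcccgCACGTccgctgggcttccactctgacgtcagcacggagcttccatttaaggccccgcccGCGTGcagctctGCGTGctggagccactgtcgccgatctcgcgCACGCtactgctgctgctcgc
Slc2a1, chr5:138002272-138002571, plus strand: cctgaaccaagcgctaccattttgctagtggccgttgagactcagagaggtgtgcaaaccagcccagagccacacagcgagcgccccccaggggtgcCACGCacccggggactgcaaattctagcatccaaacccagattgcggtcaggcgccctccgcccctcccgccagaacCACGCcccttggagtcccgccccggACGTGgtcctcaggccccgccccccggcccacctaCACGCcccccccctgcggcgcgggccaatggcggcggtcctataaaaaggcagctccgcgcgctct
Pfkp, chr17:68639563-68639862, plus strand: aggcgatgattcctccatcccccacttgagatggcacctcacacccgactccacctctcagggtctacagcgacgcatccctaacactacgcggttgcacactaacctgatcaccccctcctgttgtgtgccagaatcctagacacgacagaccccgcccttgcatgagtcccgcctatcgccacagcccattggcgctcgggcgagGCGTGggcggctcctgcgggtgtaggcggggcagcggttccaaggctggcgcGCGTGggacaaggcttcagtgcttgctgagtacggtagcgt
Hk3, chr17:9604781-9605080, plus strand: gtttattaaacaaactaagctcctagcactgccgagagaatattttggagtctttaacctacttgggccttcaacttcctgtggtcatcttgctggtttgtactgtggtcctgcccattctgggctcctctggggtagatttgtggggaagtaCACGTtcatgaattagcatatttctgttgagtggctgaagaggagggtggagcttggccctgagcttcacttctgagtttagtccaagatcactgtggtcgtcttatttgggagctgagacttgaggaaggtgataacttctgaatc
Slc2a6, chr3:30753238-30753537, minus strand: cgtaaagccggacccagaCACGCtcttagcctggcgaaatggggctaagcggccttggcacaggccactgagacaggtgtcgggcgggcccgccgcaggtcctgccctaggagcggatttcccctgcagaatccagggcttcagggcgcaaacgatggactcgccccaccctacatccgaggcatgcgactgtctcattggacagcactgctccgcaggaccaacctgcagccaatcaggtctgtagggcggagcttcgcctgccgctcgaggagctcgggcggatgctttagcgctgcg
Tpi1, chr4:159305039-159305338, minus strand: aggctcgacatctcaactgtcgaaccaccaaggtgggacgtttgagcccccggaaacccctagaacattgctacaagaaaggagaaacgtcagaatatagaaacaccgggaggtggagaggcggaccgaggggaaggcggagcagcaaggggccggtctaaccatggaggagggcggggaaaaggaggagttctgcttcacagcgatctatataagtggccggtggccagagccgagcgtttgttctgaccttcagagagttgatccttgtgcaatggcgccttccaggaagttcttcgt
Counted on both strands, the letters occurred 6 times in Ldha, 4 in Slc2a1, 2 in Pfkp and 1 each in Hk3 and Slc2a6, and they did not occur in this window of Tpi1. Hk2 held none, and Hk1 and Aldoa held 1 match each in 1 of their listed promoters. In all, 7 of the 9 genes with an entry had a match in at least 1 promoter. Counted by promoter, 7 of 12 had a match, against 41.6% of the 33469 promoters of the same length in the table. Those were not matched for GC share, which ran from 46.3% to 69.3% in the promoters of these genes, and the difference was not tested. CACGTG, which also matches other factors, was found in Ldha and in 6.42% of all promoters.

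Other genes of glycolysis were examined in the same fit, in which 1.07% of named genes were called higher and 0.712% lower. Of 25 other glycolysis genes listed, 21 were tested, with a median log2 ratio of -0.044. None was called higher and 1 was called lower, and at an unadjusted p under 0.05 in limma 2 were higher and 4 lower. The highest was Eno1, an enolase, with ratios of 1.01, 0.37, 0.92, 0.86 and 0.76 and a fitted 0.76 ± 0.14 (limma adjusted p = 0.0611). Eno1 passed with no dye term (0.0454), quantile normalization (0.0478) and the local trend removed (0.0483). It did not pass with the arrays scaled to a common spread (limma adjusted p = 0.0886) or with any 1 array left out (0.0993 to 0.327). Gapdh, the dehydrogenase that follows Tpi1, was at 0.65 ± 0.13 (adjusted p = 0.0740 in limma). Fitted ratios were 0.35 for Pgk1, 0.31 for Pgam1, 0.26 for Gpi and -0.04 for Pkm, the pyruvate kinase of leukocytes, and none of these passed. Eno1 and Gapdh also have many named pseudogenes in the rat, 30 and 79. The gene called lower was Bpgm, the enzyme that makes 2,3-bisphosphoglycerate in red cells, at -1.56 ± 0.20 (limma adjusted p = 0.0200), and its 2 probes gave -0.45 and -2.67. Of the 10 other hexose transporters tested, none was called and none had an unadjusted p under 0.05 in limma, with fitted ratios from -0.27 for Slc2a13 to 0.15 for Slc2a12.

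**Figure D3:**
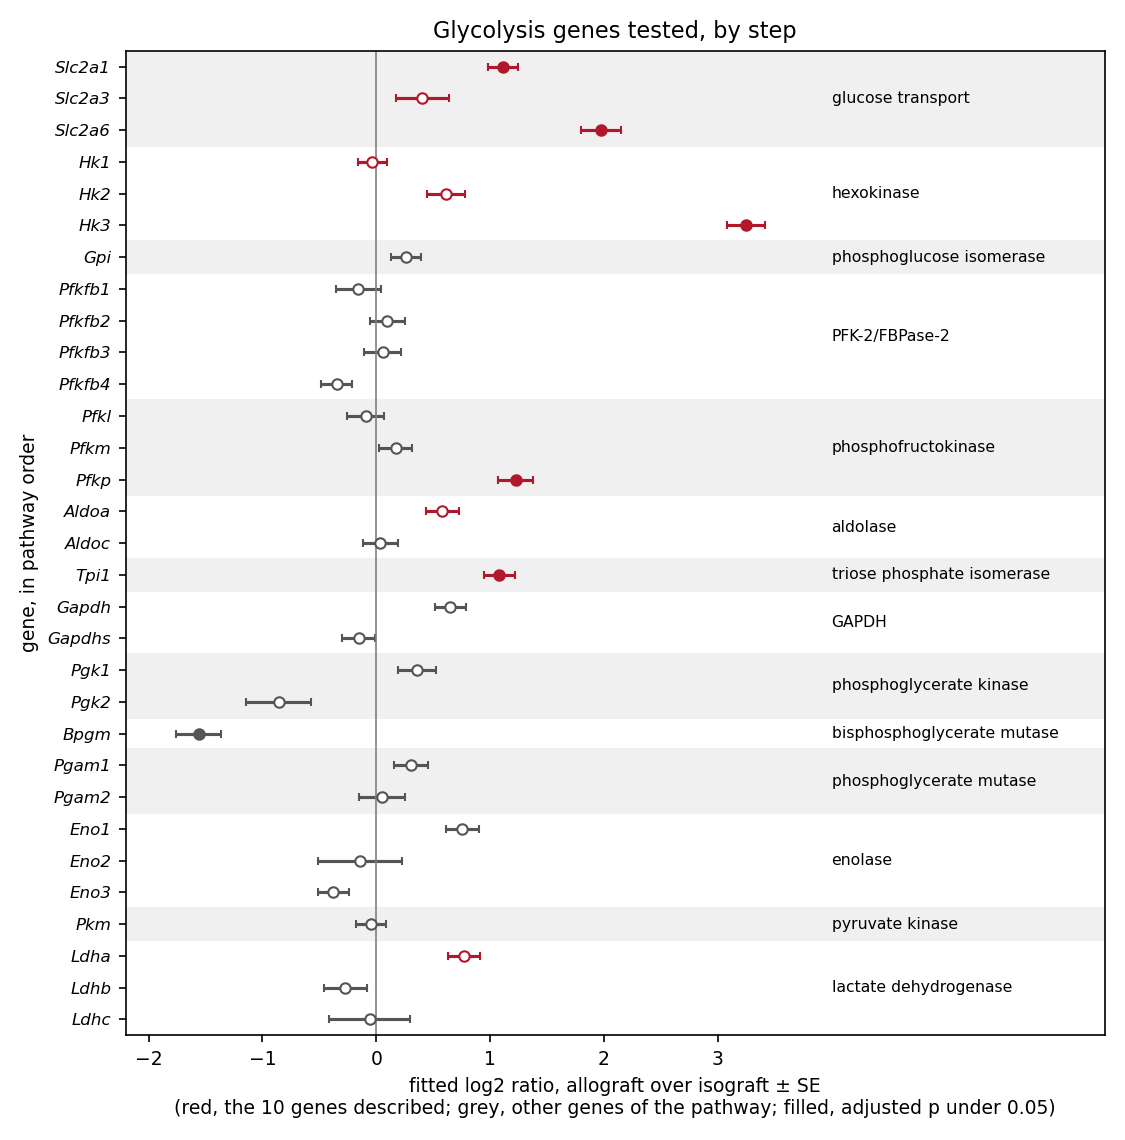
Fitted log2 ratio of allograft over isograft ± SE for the 31 glycolysis and glucose transport genes, in pathway order, with filled points for an adjusted p under 0.05. The filled points to the right of 0 are Slc2a1, Slc2a6, Hk3, Pfkp and Tpi1, and the filled point to the left is Bpgm at -1.56.

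Over all named genes, 1.07% were called higher and 0.712% lower, and 2175 of 14329 had an unadjusted p under 0.05 in limma. Pathways that join glycolysis are set beside these shares as short lists, and no list was tested as a set. Among 19 genes of lactate and pyruvate handling, 1 was called higher, Mpc1, a subunit of the mitochondrial pyruvate carrier, at 0.97 ± 0.15 (limma adjusted p = 0.0361). Among 9 genes of glycogen metabolism, 1 was called higher, Pygl, the liver-type glycogen phosphorylase, at 0.96 ± 0.13 (limma adjusted p = 0.0276). None of 6 genes of the pentose phosphate pathway, 7 of gluconeogenesis or 14 of the citric acid cycle was called, and 0, 1 and 1 of them had an unadjusted p under 0.05 in limma. Of 21 regulators of glycolysis none was called and 3 had an unadjusted p under 0.05 in limma, all higher. The highest of them was Hif1a, the oxygen-regulated subunit of hypoxia-inducible factor, at 0.79 ± 0.14 (limma adjusted p = 0.0533). Hif1a passed with no dye term (0.0374), quantile normalization (0.0440), only probes measured on all arrays (0.0495) and the local trend removed (0.0458). It did not pass with the arrays scaled to a common spread (limma adjusted p = 0.0791) or with any 1 array left out (0.104 to 0.290). Its 3 probes gave 0.40, 1.23 and 0.75, and the second passed by itself (limma adjusted p = 0.0122). Of 13 other hypoxia-response genes, P4ha1, a collagen prolyl hydroxylase, was called higher at 1.22 ± 0.16 (limma adjusted p = 0.0229). Bnip3l, a mitophagy receptor that also acts as red cells mature, was called lower at -0.86 ± 0.14 (limma adjusted p = 0.0432), with probes at -1.55 and -0.17. At an unadjusted p under 0.05 in limma, 4 of these 13 genes were higher and 2 lower, and their median was -0.032.

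Markers of other cells moved between the groups on the same arrays. Of 16 red cell markers listed, 11 were tested and 7 called lower, with a median of -1.73, and their mean ratio ran from -2.25 to -1.27 over the arrays. The 7 were the globins Hbb-b1 and Hbb, the globin chaperone Ahsp, the haem synthesis enzymes Alas2 and Fech, and Add2 and Sptb of the membrane skeleton. The probes of Alas2 gave -0.19 and -2.88 and those of Hbb -0.80 and -3.73. The first of each did not pass by itself (adjusted p = 0.748 and 0.131 in limma), while both probes of Add2 passed. Of 10 platelet markers listed, 7 were tested and 5 called lower, with a median of -2.23, and their mean ran from -2.56 to -1.64. The 5 were Clec1b, Gp1bb, Gp5 and Treml1, which are platelet surface receptors, and Pf4, a granule chemokine. Of 14 monocyte and macrophage markers, Cd14 at 1.42 and Aif1 at 1.02 were called higher and none lower, and at an unadjusted p under 0.05 in limma 4 were higher and 2 lower. Their median was 0.18, with array means from 0.076 to 0.36, and the lowest, the chemokine receptor Ccr2, was at -0.85 and below 0 on 5 of 5 arrays. Of 12 neutrophil markers, cells in which Hk3 is also abundant, none was called and 4 had an unadjusted p under 0.05 in limma, 1 higher and 3 lower, with a median of -0.20 and array means from -0.46 to -0.0026. Among 12 T cell markers, Cd3e at 1.10 was called higher and 5 were higher at an unadjusted p under 0.05 in limma, with a median of 0.29. Among 7 NK cell and cytotoxic markers, Gzmc at 1.29, Klrk1 at 1.16 and Nkg7 at 0.84 were called higher, and at an unadjusted p under 0.05 in limma 3 were higher and 2 lower, with a median of 0.43. Ncr1, a receptor of NK cells, was the lowest of them at -0.61 and below 0 on 5 of 5 arrays. None of 5 B cell, 10 endothelial or 10 kidney tubule and podocyte markers was called, with 3, 2 and 0 at an unadjusted p under 0.05 in limma and medians of -0.85, -0.017 and -0.12. With any 1 array left out Aif1, Cd3e, Klrk1 and Nkg7 lost their calls, and Cd14 and Gzmc kept theirs only without replicate 2. Of the 7 red cell calls, 2 remained without replicate 1, 4 or 5, 5 without replicate 2 and 6 without replicate 3. Of the 5 platelet calls, 4 remained without replicate 1, 2 or 4 and 3 without replicate 3 or 5. The part of these shifts in the ratios of the 10 genes was not tested.

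**Figure D4:**
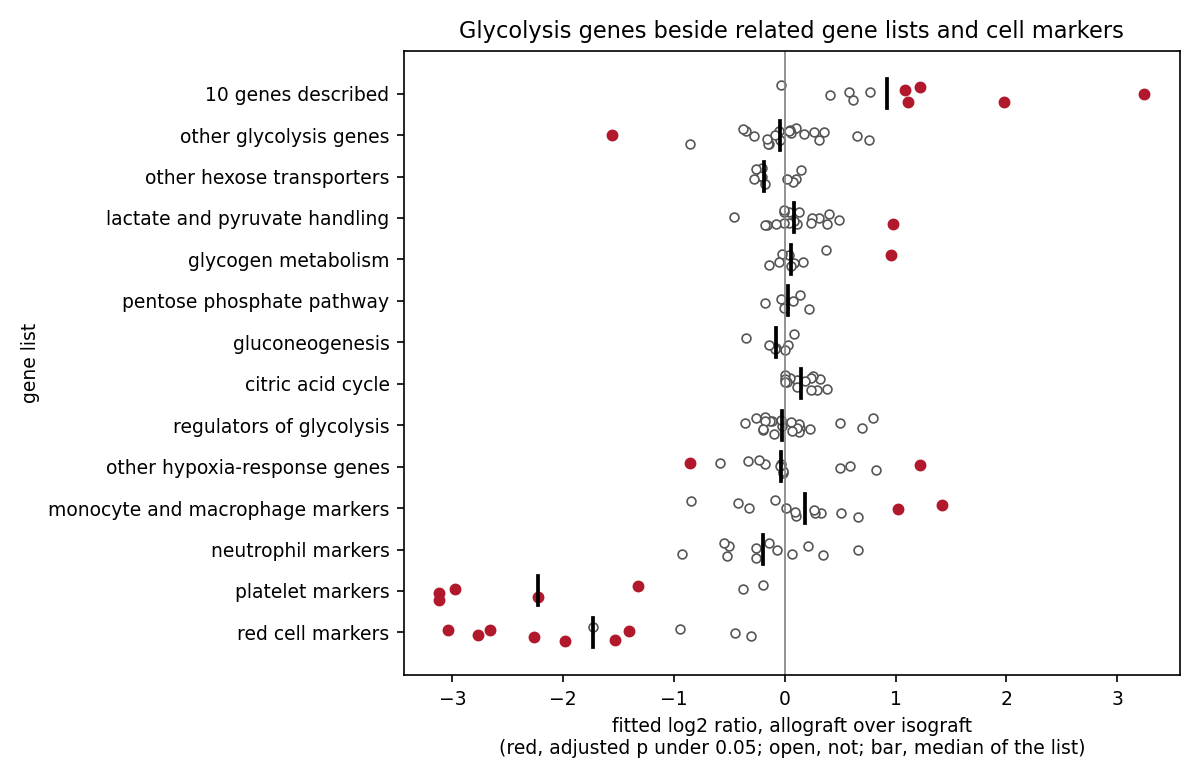
Fitted log2 ratio of allograft over isograft for each gene of the 10 described and of 13 other lists, with red points for an adjusted p under 0.05 and a bar at the median of each list. The 10 genes, chosen with earlier results of these data known, have a median of 0.92. The other metabolic lists lie around 0, and the platelet and red cell markers lie at -2.23 and -1.73.

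The median ratio of the 10 genes was 1.12, 0.509, 1.16, 0.933 and 0.925 on replicates 1 to 5, lowest on replicate 2, where 8 of the 10 genes had their lowest value. Over the named genes the SD was 0.394 on replicate 2 and 0.390 on replicate 3, where the median of the 10 genes was highest, and 0.623 to 0.659 on the other arrays. Of the named genes above 0 on all 5 arrays, 41.2% were lowest on replicate 2, against 6 of the 8 such genes here. After each array was divided by its own median absolute deviation, 4 of the 10 genes were lowest on replicate 2.

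The named genes with the most similar ratios over the 5 arrays were found by Euclidean distance among 13304 genes measured on all of them. The ratios were not scaled, so this distance selects genes with ratios of like size. Shared regulation was not tested. Nearest to Hk3 were Cxcl11, an interferon-induced chemokine, at a distance of 0.557, Fabp5, a fatty acid binding protein, at 0.770 and Acod1, which makes itaconate, at 1.17. Nearest to Slc2a6 were Txn1, a thioredoxin, at 0.469, Sgk1, a serum-induced kinase, at 0.573 and Psen2, a presenilin, at 0.601. Slc2a1 was nearest to Klrk1, an activating receptor of NK and T cells, at 0.390, Tlr4, the endotoxin receptor, at 0.401 and RT1-M3-1 at 0.415. Pfkp was nearest to Ggct at 0.282, Nuf2, a kinetochore protein, at 0.314 and Gatd1 at 0.450, and Tpi1 to Gpr141 at 0.401, Hebp1 at 0.411 and Mcm6, a replicative helicase subunit, at 0.469.

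With 1 array left out, the calls over all rows fell from 455 to between 64 and 149, so lost calls were not particular to these genes. Hk3 and Slc2a6 stayed called with any 1 array left out, with ratios of 3.07 to 3.42 and 1.77 to 2.19. Slc2a1, Pfkp and Tpi1 were called in none of those 5 fits, with adjusted p of 0.0689 to 0.119, 0.0585 to 0.126 and 0.0657 to 0.133 in limma, while their ratios stayed at 1.08 to 1.17, 1.16 to 1.32 and 1.00 to 1.16. Mpc1, Pygl, P4ha1 and Bnip3l also lost their calls in each of those fits, and Bpgm kept its call only without replicate 2.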

How the data were processed

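Leukocyte cDNA from rat grafts was hybridised on 5 two-colour arrays. The authors deposited log ratios of 44290 spots on each array, with the base unstated, and they were read here as log2. Their range is too wide for log10, and a natural log cannot be told apart. For background correction, normalization and software: not given in the sources used here. Replicates 2 and 4 were read as already turned to allograft over isograft.

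Values were tied to probes through the recovered layout. Of the probes, 23535 had 1 gene symbol, 48 several and 20707 none, and 23488 matched the RefSeq GRCr8 table, with 1 symbol changed. Probes needed values on at least 4 arrays and both dye orientations. A further 407 spots whose sign followed the dye were left out, none on a gene named here. Probes were averaged per symbol. limma 3.58.1 in R 4.3.3 fitted graft and dye terms, with Benjamini-Hochberg adjustment over 33646 rows and a threshold of 0.05. Array ratios carry no counts, so precision is limited by the 5 arrays. Differences between related genes used an exact two-sided sign-flip test.

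The 10 genes, the lists and the cell markers were chosen with earlier results of these data known. Beside the 10, genes to be named were drawn from those called in each list, the highest and lowest gene of each list and the 3 nearest genes of each member called, and the highest and lowest were left unnamed in several lists. Gapdh, Pgk1, Pgam1, Gpi, Pkm, Pfkl, Pfkm, Aldoc and Ldhb fall outside that rule and are named as neighbouring steps or isoforms, after their values were seen. On simulated data of 33646 rows, the fit recovered 18 of 100 at a log2 change of 1 and 63 of 100 at 2, with 0 false calls. The noise was normal and drawn independently for each row, with that row's residual SD before moderation taken as its true SD. A random dye effect was also added to every row. The recovered shares therefore describe this setting and do not measure the power of the real fit. Noise shared between rows was not simulated, so the 0 false calls do not measure errors in the real data. Alternatives changed the dye term, scaling, probe summary, filters, weights, variance prior, local trend, column direction and the arrays used.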

Additional observations from a re-analysis of the deposited data

Results flagged for a closer look

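The ratio of Aldoa on replicate 2, 0.17, stood apart from the other 4 arrays, whose values lay between 0.63 and 0.76. The gap to the nearest array was 0.765 of the whole range, above Dixon's critical value of 0.71 for 5 samples. Of 72 genes checked it was the only 1 to stand apart in this way, where chance gives about 1 in 20. A single flag is thus no more than chance would give. Replicate 2 was also the lowest array for 8 of the 10 genes.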

How the results depend on the processing

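The count over the whole table, 455, was 749 after quantile normalization and 64 to 149 with 1 array left out. The count among the 10 genes, 5, was 2 with the arrays scaled to a common spread and 2 to 2 with 1 array left out. The count over the 31 glycolysis genes, 6, was 3 with scaled arrays and 2 to 3 with 1 array left out. With the columns of replicates 2 and 4 turned, all 3 counts were 0 in limma, and 3823 rows had an unadjusted p under 0.05. Turning these columns exchanges the graft and dye terms of the fit, so the turned values repeat the dye term of the main fit. The 407 spots whose sign followed the dye had also been left out beforehand. The turned fit is therefore no independent check of the direction of the ratios or of the stability of a gene. Of the calls over the whole table, 31.3% were higher with scaled arrays against 56.3% as deposited. Under the other alternatives all 3 counts stayed within 1.5 times. The fits with 1 array left out also had fewer arrays, and the cause of these changes was not tested. No paired analysis was possible because each array already sets an allograft against an isograft sample and the arrays form 1 group. The log2 ratio changed sign as follows. With the columns turned, the values were Slc2a1 -0.0019, Slc2a3 -0.16, Hk1 0.058, Alas2 0.054, Bnip3l 0.13, Gzmc -0.037, Hbb-b1 0.012, Pf4 0.19, Pdp2 0.064, H6pd 0.021, Gys2 0.23, Akt2 0.42, Ccr2 0.16, S100a9 0.22, Ncr1 0.089, Kdr 0.079, Kap 0.19, Slc2a12 -0.30, Camp -0.51, Itgb3 0.065, Pecam1 -0.0098, Slc22a6 -0.063, Tlr4 -0.12, RT1-M3-1 -0.049 and Psen2 -0.038. With the median of its probes, the value was Hk1 0.068. With probe 1 by itself, the values were Hk1 0.027, H6pd 0.059, Pck1 0.23 and Pck2 -0.0041. With probe 3 by itself, the value was Hk1 0.16. With values on at least 3 arrays, the value was Gys2 0.033. With quantile normalization, the value was Sdha 0.015. With scaled arrays, the value was Sdha 0.015. With the local trend removed, the value was Sdha 0.045. With probe 2 by itself, the values were Sdha 0.067 and Rhag 0.022. With 1 array left out in turn, ratios ran for Slc2a13 from -0.59 to 0.038, Gys2 from -0.091 to 0.088, Sdha from -0.062 to 0.091, Slc2a12 from -0.011 to 0.35, Pck2 from -0.0031 to 0.14 and Slc22a6 from -0.078 to 0.61. None of the genes that changed sign apart from the turned columns had been called. The deposited ratios carry no signal over background, so dim spots could not be set apart.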
